A study of Mus musculus with 2 samples.

Results

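Hearts of female B6CASTF1/J mice, which are F1 hybrids, were profiled at 14 days of age by sequencing long reads of their RNA, in 2 libraries of 1 group, replicates 1 and 2. No genotype, treatment or age was compared, so the values describe this tissue and the difference between its libraries. The set described here holds 9 genes of the Z-disc, taken by name out of 16310 annotated genes with at least 1 read in either library: the alpha-actinins Actn1, Actn2 and Actn4, with Flnc, Myoz2, Tcap, Mypn, Synpo2l and Fhod3. All reads assigned to these genes were counted, whatever the class of transcript model, and transcripts were matched between the libraries by their chain of introns. Both libraries are numbered as biological replicates, yet they carry the same donor entry and a description that speaks of several females, so it is not clear that they come from separate animals. The p-values and intervals below therefore cover counting error only, and replicates 1 and 2 may differ for technical reasons.

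The Z-disc is the plate that borders each sarcomere, where thin filaments of neighbouring sarcomeres are anchored and crosslinked by alpha-actinin. Alpha-actinin works as an antiparallel dimer with an actin-binding domain at each end, a rod of spectrin repeats between them and a calmodulin-like pair of EF-hand regions. Actn2 encodes the sarcomeric form of heart and skeletal muscle, whereas Actn1 and Actn4 encode forms found in most cells, at stress fibres and adhesions. Myoz2 (calsarcin-1) tethers the phosphatase calcineurin to alpha-actinin, Tcap (telethonin) joins the ends of titin molecules, and Mypn (myopalladin) binds both alpha-actinin and nebulin-family proteins. Flnc is the muscle filamin, an actin crosslinker, Synpo2l (CHAP) is a muscle adaptor of the synaptopodin family, and Fhod3 is a formin needed to build cardiac sarcomeres.

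Replicate 1 held 884718 reads and replicate 2 held 959334 once spike-ins were set aside, and each level is given as CPM, the reads of a gene per 1000000 of these. A read weighed 1.13 CPM in replicate 1 and 1.04 in replicate 2. The limit that 0 reads allow was 3.39 and 3.13 CPM (3 reads). The label of heart tissue was met by all 7 cardiomyocyte markers, which summed to 40677 CPM in replicate 1 and 40634 in replicate 2. Markers of fibroblasts (7 of 7 detected, 6463 and 6254 CPM), endothelium (6 of 6, 902 and 852 CPM), smooth muscle and pericytes (7 of 7, 1062 and 911 CPM), macrophages (5 of 5, 245 and 216 CPM) and red cells (3 of 3, 13084 and 11263 CPM) were present as well. Of 9 skeletal muscle markers only Acta1 and Ckm, which the heart also expresses, had at least 3 reads in both libraries, and the fast myosin genes Myh1, Myh2 and Myh4 were at 0. Actn1 and Actn4 are expressed in non-muscle cells too, and how their reads divide among cell types was not tested.

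The set summed to 7132 CPM in replicate 1 (6310 reads) and 6764 CPM in replicate 2 (6489 reads), and Actn2, Tcap and Myoz2 together took 93.2% and 92.8% of it. Actn2 (ENSMUSG00000052374.16, mm10 chromosome 13, 12269426 to 12340760, minus strand) had 3149 and 3136 reads, or 3559 and 3269 CPM in replicates 1 and 2. It stood at place 21 among all annotated genes in replicate 1 and at place 22 in replicate 2. Tcap (ENSMUSG00000007877.2, chromosome 11, 98383811 to 98384953, plus strand) followed with 1821 and 1975 reads, which came to 2058 and 2059 CPM. Myoz2 (ENSMUSG00000028116.13, chromosome 3, 123006206 to 123035015, minus strand) had 908 and 912 reads, or 1026 and 951 CPM. These 3 genes were high in both libraries, and the lowest of them lay well above the highest of the other members.

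Fhod3 (ENSMUSG00000034295.10, chromosome 18, 24708623 to 25133501, plus strand) had 140 reads in replicate 1 and 137 in replicate 2, or 158 and 143 CPM. Actn4 (ENSMUSG00000054808.15, chromosome 7, 28893248 to 28962340, minus strand) had 116 and 114 reads, or 131 and 119 CPM. Synpo2l (ENSMUSG00000039376.13, chromosome 14, 20658946 to 20668354, minus strand) had 93 and 132 reads, or 105 and 138 CPM. The levels of Actn4 and Synpo2l overlapped between the libraries, and both Fhod3 values lay above them. Mypn (ENSMUSG00000020067.8, chromosome 10, 63115795 to 63203952, minus strand) had 36 and 42 reads, or 40.7 and 43.8 CPM, and Flnc (ENSMUSG00000068699.12, chromosome 6, 29433256 to 29461883, plus strand) had 36 and 32 reads, or 40.7 and 33.4 CPM. Actn1 (ENSMUSG00000015143.15, chromosome 12, 80167547 to 80260371, minus strand) was the lowest member, with 11 and 9 reads, or 12.4 and 9.38 CPM.

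**Figure D1:**
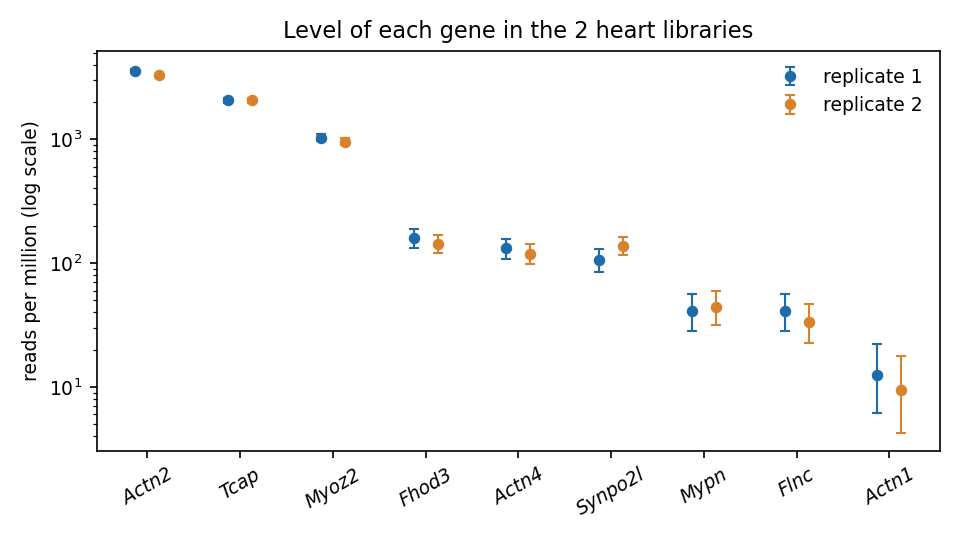
Level of each of the 9 genes, in CPM on a log scale, with the replicates as points side by side and exact 95% intervals that cover counting error. Actn2, Tcap and Myoz2 lie between 951 and 3559 CPM, Fhod3, Actn4 and Synpo2l between 105 and 158, Mypn and Flnc between 33.4 and 43.8, and Actn1 near 10.9.

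Neighbours in this order were compared by a two-sided exact binomial test on their reads in each library, adjusted over the 16 tests. Fhod3 and Actn4 did not differ beyond counting error (adjusted exact p = 0.201 and 0.203), nor did Actn4 and Synpo2l (0.186 and 0.315), nor Mypn and Flnc (1 and 0.315). All other neighbours differed in both libraries. The weakest was Flnc over Actn1, with an adjusted exact p of 0.000615 in replicate 1 and 0.000689 in replicate 2. The gap between Synpo2l and Mypn rests partly on reads of the genomic class, described below. Without that class Synpo2l had 43 reads in replicate 1 and 69 in replicate 2, and Mypn 34 and 40. Their order without it was not tested. A long read counts a molecule rather than a length of RNA, so the order per read is the main one. That order takes transcripts of all lengths to be captured equally, which was not tested. The order per length is given as an alternative, and it places short transcripts higher. Divided by the length in kb of the leading annotated transcript, Tcap came first at 2171.4 ± 0.326 CPM per kb (SD, n = 2), ahead of Actn2 at 1133 ± 68.2 and Myoz2 at 837 ± 45.3. On that per-length scale Actn4 stood at 32.2 ± 2.24, Synpo2l at 30.5 ± 5.77 and Fhod3 at 27.8 ± 2.02, while Mypn (8.05 ± 0.416), Flnc (4.14 ± 0.580) and Actn1 (4.09 ± 0.810) were the lowest.

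Replicates 1 and 2 were set against each other, gene by gene, by a two-sided exact binomial test over 9907 genes, of which 1.69% were called at an adjusted p under 0.05. Of the 9 members only Actn2 was called, lower in replicate 2 by a log2 ratio of -0.12 (95% interval -0.19 to -0.05, adjusted exact p = 0.0458). That call was lost when the genomic class was left out (adjusted exact p = 0.0796), when no minimum of reads was set (0.0754) and when annotated forms alone were counted (0.220), while the log2 ratio stayed at -0.11, -0.12 and -0.12. Synpo2l had the largest positive ratio, 0.39 (95% interval -0.01 to 0.79, adjusted exact p = 0.553), and Tcap the smallest in size, 0.00. Actn1 had the largest negative ratio, -0.41 (95% interval -1.86 to 1.00), from few reads. Flnc (-0.29), Fhod3 (-0.15), Actn4 (-0.14) and Myoz2 (-0.11) were also lower in replicate 2 without being called. Tcap, Mypn and Synpo2l had a higher CPM in replicate 2, although Tcap turned to -0.01 with TMM totals and Mypn to -0.05 with annotated forms alone. The median log2 ratio of the 9 was -0.12, beside 0.00 over all genes tested. In tissue RNA, fewer cells of a type and less RNA per cell cannot be told apart. The 3 red cell markers were all called lower in replicate 2, and of the cardiomyocyte markers Actc1 and Pln were called higher and Nppa lower. Ckm, listed with the skeletal muscle markers but also expressed in heart, was called lower (log2 ratio -0.12, adjusted exact p = 1.7e-05). The part of these markers in the Actn2 difference was not tested.

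Of 50 other genes tied to the Z-disc and its neighbours, 43 could be tested between the libraries and 4 were called, 2 in each direction. Over all 9907 genes tested, 1.69% were called. The median log2 ratio of the 43 was -0.02, and whether they differ as a group was not tested. Csrp3, the muscle LIM protein, was higher in replicate 2 (1049 against 1241 CPM, log2 ratio 0.24, adjusted exact p = 0.0117). Ankrd1, a stretch-responsive ankyrin repeat protein that binds myopalladin, was higher too (130 against 220 CPM; 0.76; adjusted exact p = 0.000649). Des, the muscle intermediate filament desmin, was lower (2317 against 2082 CPM, log2 ratio -0.15, adjusted exact p = 0.0430), as was Trim54, a muscle ubiquitin ligase (215 against 143 CPM; -0.59; adjusted exact p = 0.0208).

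Within the alpha-actinin family, Actn2 took 96.1% of the reads in replicate 1 (3149 of 3276; exact 95% interval 95.4 to 96.8%) and 96.2% in replicate 2 (3136 of 3259; 95.5 to 96.9%). Actn4 took 3.54% and 3.50%, and Actn1 0.336% and 0.276%. Actn3, the fast skeletal muscle alpha-actinin, had 0 reads in both libraries, which allows an upper bound of 0.113% of the family in either (exact 95% interval). None of the 4 shares passed a test of a difference between the libraries (adjusted exact p = 1 by Fisher's test over 18 family shares). The myozenin reads were nearly all from Myoz2, which held 908 of 908 and 912 of 917. Myoz3 had 0 reads, and Myoz1 had 0 in replicate 1 and 5 in replicate 2. Of those 5, 4 lay on models that overlap Synpo2l on the same strand. The FHOD formins were likewise nearly all Fhod3, with 140 and 137 reads against 1 and 2 for Fhod1, which is broadly expressed.

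The other families were mixed. Flnc had 36 reads in replicate 1 and 32 in replicate 2, beside 45 and 41 for Flna, a filamin of non-muscle cells. Nearly all Flnc reads were incomplete, as given below, and the effect of that on its count was not tested. Mypn held 17.6% and 16.5% of its family, beside 75.6% and 77.6% for Palld (palladin) and 6.83% and 5.91% for Myot (myotilin). Synpo2l held 46.7% of synaptopodin reads in replicate 1 (93 of 199; exact 95% interval 39.6 to 53.9%) and 60.8% in replicate 2 (132 of 217; 54.0 to 67.4%). That share differed between the libraries (adjusted exact p = 0.0390, Fisher's test), with Synpo moving from 28.1% to 16.1% and Synpo2 at 25.1% and 23.0%. The difference no longer passed when the genomic class was left out (44.8% and 61.1%, adjusted exact p = 0.232) or when annotated forms alone were counted (86.4% and 95.3%, adjusted exact p = 1).

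The members differed in the classes of model that held their reads. TALON places a read in an annotated form, or in an incomplete model that matches part of the intron chain of a longer form. Other reads go to a new combination of known splice sites or to a form with a new splice site. The genomic class holds reads within a gene that match no splicing pattern. Tcap and Myoz2 reads were almost all on annotated forms, with 1751 of 1821 and 1905 of 1975 for Tcap and 837 of 908 and 843 of 912 for Myoz2. Actn2 had 2115 of 3149 and 2121 of 3136 on annotated forms and nearly all of the rest on incomplete models. Fhod3 had none on an annotated form, Flnc 4 of 36 and 1 of 32. Of the Synpo2l reads, 50 of 93 and 63 of 132 were in the genomic class, each time in a single model with 1 exon inside the span of the last exon. Without that class Synpo2l stood at 62.3 CPM on average rather than 121.

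**Figure D2:**
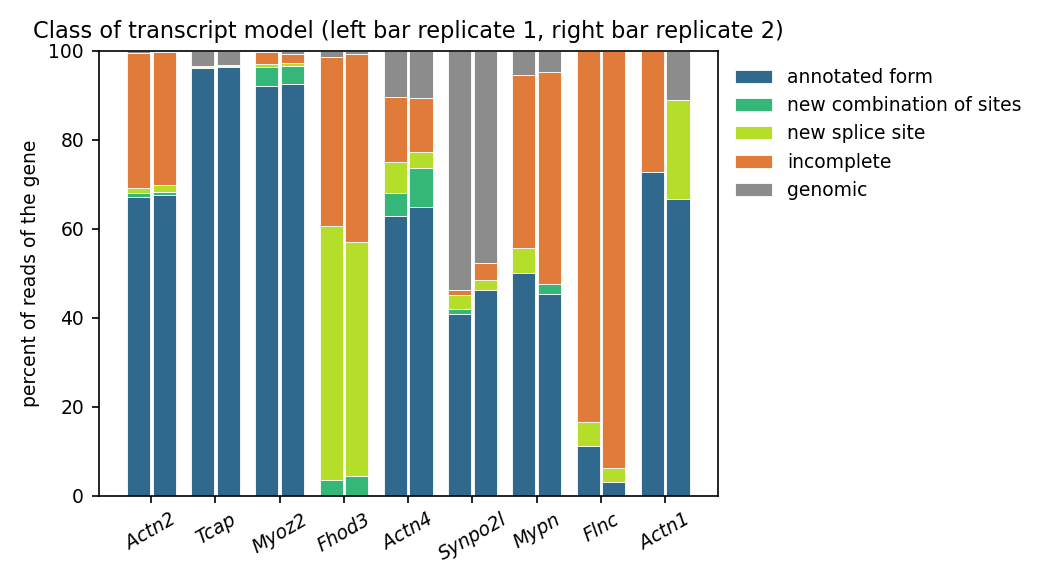
Share of the reads of each gene by class of transcript model, in percent, with replicate 1 as the left bar and replicate 2 as the right bar of each pair. Tcap and Myoz2 are nearly all annotated, Fhod3 has no annotated read, Flnc is mostly incomplete (83.3% and 93.8%) and about as many Synpo2l reads are genomic as not.

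Forms were compared among usable reads, which are those on annotated models and on unannotated spliced models that had 5 or more reads in both libraries. Actn2 came almost wholly as Actn2-201, a form of 21 exons and 3013 bases, with 2106 of 2144 usable reads in replicate 1 (98.2%; exact 95% interval 97.6 to 98.7%) and 2115 of 2142 in replicate 2 (98.7%; 98.2 to 99.2%). All 19 internal exons of that form were held by over 95% of the reads that could show them. Actn2-203, in which a piece is spliced out of the first exon, had 9 and 6 reads. In 3 unannotated forms, with 14 and 5, 9 and 7, and 6 and 9 reads, a single acceptor was moved by 2 bases. Tcap came only as Tcap-201 among usable reads (1751 and 1905). Its single intron, 195 bases long, was still present in 64 reads of each library, or 3.52% in replicate 1 (exact 95% interval 2.72 to 4.48%) and 3.25% in replicate 2 (2.51 to 4.13%), and those reads lie in the genomic class.

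The incomplete reads of Actn2 were concentrated at a single place. Incomplete models held 954 of 3149 reads in replicate 1 (30.3%; exact 95% interval 28.7 to 31.9%) and 937 of 3136 in replicate 2 (29.9%; 28.3 to 31.5%), and 952 and 930 of them lacked the 5′ part. A single model of 10 exons and 1498 bases, which begins in exon 12 of 21, held 780 and 751 reads. These were 24.8% and 23.9% of all Actn2 reads and 81.8% and 80.1% of its incomplete ones, whereas the next of 32 incomplete models had 38 reads over both libraries. Exon 12 is coding and 151 bases long (mm10 chr13:12288507-12288657, minus strand). Its sequence, from the GENCODE M21 transcripts, is shown because the model starts in it, with the exon in capitals and 12 bases of each neighbouring exon in lower case.
Actn2 exon 12: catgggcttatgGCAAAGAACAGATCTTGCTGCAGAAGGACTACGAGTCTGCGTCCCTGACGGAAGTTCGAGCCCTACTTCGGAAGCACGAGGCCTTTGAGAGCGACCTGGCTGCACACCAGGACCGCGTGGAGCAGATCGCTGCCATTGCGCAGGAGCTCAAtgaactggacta

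Along Actn2, 97.8% to 98.0% of the spliced reads reached across intron 12, but 72.7% in replicate 1 and 73.1% in replicate 2 reached across intron 11. Upstream of there the loss was slight, and 69.2% and 69.6% reached across intron 1. The deposited models end at annotated exon edges, so where in exon 12 the reads themselves begin is not known. Among 1455 genes with at least 100 reads in replicate 1, the share of the largest incomplete model had a median of 1.47%, and Actn2 stood at place 49. In replicate 2 the median was 1.48% over 1579 genes and Actn2 stood at place 59. A share of 20% or more was found for 60 and 71 genes.

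**Figure D3:**
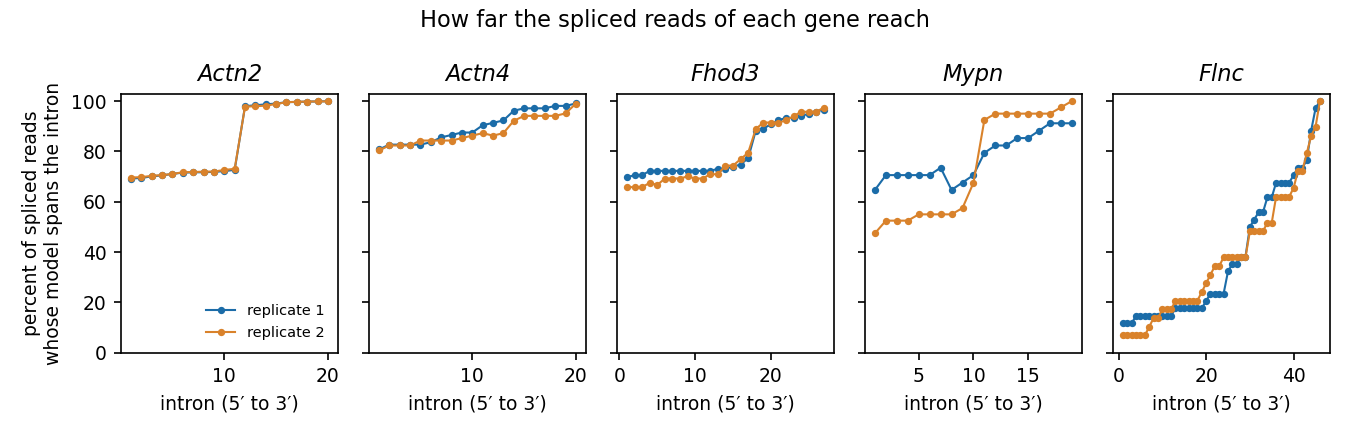
Percent of the spliced reads of 5 long genes whose model spans each intron of the leading form, numbered from the 5′ end, for replicates 1 and 2. The Actn2 curve steps from near 98% to near 73% between introns 12 and 11 in both libraries, while the Flnc curve falls gradually over its 46 introns to 11.8% and 6.90% at the first.

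Most Fhod3 reads outside the incomplete and genomic classes were on a single form that the annotation lacks. All 69 usable reads in replicate 1 and all 69 in replicate 2 shared a single chain of 28 exons, which differs from the annotated Fhod3-201 by an added exon of 24 bases between annotated exons (chr18:25124368-25124391, plus strand). The exon was held by 109 of the 112 reads that could show it in replicate 1 (97.3%; exact 95% interval 92.4 to 99.4%) and by 111 of 111 in replicate 2 (100%; 96.7 to 100%). It does not overlap any annotated coding segment, and its length is a multiple of 3. Heart FHOD3 is known for a short muscle-type exon that adds a phosphorylation site to its C-terminal part. Whether the exon seen here is that one was not tested, because its sequence was not used here. Exons of 96 and 357 bases also tell annotated Fhod3 forms apart, the former annotated in Fhod3-201 alone and the latter in Fhod3-201 and Fhod3-204. The exon of 96 bases was held by 83 reads and skipped by 2 in replicate 1, and the exon of 357 bases by 84 and 2. In replicate 2 each was held by 78 reads and skipped by 3. In all, 23 unannotated spliced Fhod3 forms were listed, the leading one included, with 85 reads in replicate 1 and 78 in replicate 2. With all of them counted from 1 read, the leading form had a mean share of 84.8%, and with incomplete models in the denominator 55.4%.

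Other members with long transcripts were incomplete in other ways. Flnc, whose form Flnc-202 spans 47 exons and 8939 bases, was incomplete in 30 of 36 reads (83.3%; exact 95% interval 67.2 to 93.6%) and 30 of 32 (93.8%; 79.2 to 99.2%). These were spread over 25 models, the largest with 4 and 3 reads, and only 4 reads and 1 read covered the whole chain. Mypn, with 20 exons and 5246 bases, had 38.9% (replicate 1) and 47.6% (replicate 2) of its reads incomplete, and Fhod3, with 28 exons and 5433 bases, 37.9% and 42.3%. Actn4, at 3877 bases, was incomplete in 14.7% and 12.3%. Synpo2l, with 3979 bases and 4 exons, had 1.08% and 3.79% incomplete (a mean of 2.43%, or 4.79% without the genomic class). Those Synpo2l shares do not count as incomplete its 50 and 63 genomic reads, which lie inside the span of the last exon. The short Myoz2 (2.75% and 2.19%) and Tcap (0.110% and 0%) were nearly complete. For comparison, the median share over all genes with at least 20 reads was 7.41% and 7.14% for leading transcripts of 3 to 5 kb and 9.76% and 10% for longer ones. For no member did the difference in this share between the libraries pass the test (lowest adjusted exact p = 0.639, Fisher's test).

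Myoz2 had several minor forms beside a leading one. Myoz2-201, with 6 exons and 1181 bases, took 790 of 873 usable reads in replicate 1 (90.5%; exact 95% interval 88.4 to 92.4%) and 793 of 877 in replicate 2 (90.4%; 88.3 to 92.3%). Next came Myoz2-203, annotated as subject to nonsense-mediated decay, with 23 and 31 reads. It carries an extra exon of 172 bases (chr3:123033192-123033363), which was in 2.73% of reads in replicate 1 and 3.83% in replicate 2. An unannotated form without the coding exon of 170 bases had 23 and 21 reads, and over all spliced reads that exon was held by 849 and 856 reads and skipped by 24 in each library. Further unannotated forms lacked the exon of 89 bases (8 reads in each library) or that of 184 bases (5 in each). None of the lengths 170, 172, 89 and 184 is a multiple of 3. Myoz2-204, whose second exon is 139 bases long where Myoz2-201 has 89, had 17 and 12 reads, and Myoz2-202, with an intron kept, 7 in each. The skipped exon of 170 bases (chr3:123026063-123026232, minus strand) is shown in capitals with 12 bases of its neighbours, as the exon most often skipped among those of Myoz2-201.
Myoz2 exon 3: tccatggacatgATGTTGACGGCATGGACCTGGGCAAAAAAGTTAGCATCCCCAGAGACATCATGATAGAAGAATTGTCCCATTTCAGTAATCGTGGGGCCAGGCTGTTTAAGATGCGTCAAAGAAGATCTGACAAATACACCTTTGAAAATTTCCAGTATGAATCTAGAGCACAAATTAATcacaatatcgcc

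Synpo2l reads lay mainly on 2 forms with different annotated first exons. Where the reads themselves begin is not known, because the deposited models end at annotated exon edges. Synpo2l-202, with 4 exons, had 31 of 38 usable reads in replicate 1 (81.6%; exact 95% interval 65.7 to 92.3%) and 40 of 61 in replicate 2 (65.6%; 52.3 to 77.3%). Synpo2l-203, with 2 exons and its own first exon downstream, had 7 and 20 reads, or 18.4% and 32.8%, and Synpo2l-201 had 0 and 1. The share of the leading form did not pass a test between the libraries (adjusted exact p = 0.633, Fisher's test over 6 members), and the intervals overlap. At the acceptor that the forms share, over all spliced reads, the donor of the downstream first exon was used by 8 of 43 reads and 21 of 67. The 250 bases before each annotated start, from RefSeq on GRCm38.p6, are shown because forms with either first exon had reads. Matches to the MEF2 motif of muscle genes are in capitals.
Synpo2l upstream start, chr14:20668355-20668604, minus strand: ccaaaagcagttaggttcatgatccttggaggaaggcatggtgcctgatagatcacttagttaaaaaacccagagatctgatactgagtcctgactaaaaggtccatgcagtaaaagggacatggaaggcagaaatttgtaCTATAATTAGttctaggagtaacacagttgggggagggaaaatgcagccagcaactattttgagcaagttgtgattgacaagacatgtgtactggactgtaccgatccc
Synpo2l downstream start, chr14:20664575-20664824, minus strand: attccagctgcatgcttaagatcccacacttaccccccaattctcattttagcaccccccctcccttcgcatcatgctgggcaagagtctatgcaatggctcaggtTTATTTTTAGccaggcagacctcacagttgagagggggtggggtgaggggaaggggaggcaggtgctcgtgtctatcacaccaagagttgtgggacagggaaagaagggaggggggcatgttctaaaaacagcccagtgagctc

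Such windows were searched for 7 of the 9 genes, 9 windows in all. Tcap and Fhod3 were not among the genes searched, so the counts below say nothing of them. The MEF2 motif, searched on both strands, was in 3 of these 9 windows, both of Synpo2l and that of Myoz2, and in 1.69% of 32851 promoter windows of the same length. The letters CANNTG, the E-box core, were in 7 of 9 and in 66.2% of all windows, CATTCC in 3 of 9 and 12.6%, GATAA in 1 of 9 and 22.6%, and TATAAA in 1 of 9 and 12.4%. The CArG motif was in none of the 9 and in 1.47% of all. These are matches of letters, not measured binding sites. None of the MEF2 matches overlapped a match of another motif, whereas in Mypn a CATTCC and a CANNTG match shared a base.

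Actn1 and Actn4 have a pair of alternative exons in the EF-hand region, known to set calcium sensitivity in these proteins, with 66 bases in the shorter and 81 in the longer. In Actn4 the longer exon 19 of Actn4-201 (chr7:28895432-28895512) was in 98 of 101 reads in replicate 1 (97.0%; exact 95% interval 91.6 to 99.4%) and 87 of 95 in replicate 2 (91.6%; 84.1 to 96.3%). The shorter one, annotated in Actn4-210 (chr7:28895121-28895186), was in 3 of 101 (2.97%) and 9 of 96 reads (9.38%). In Actn1 the shorter exon (chr12:80170183-80170248, Actn1-202) was in 8 of 11 reads and 4 of 8, and the longer (chr12:80170686-80170766, Actn1-201) in 3 of 11 and 4 of 8. The counts of Actn1 are too few to order its forms. Over their lengths the shorter exons of Actn1 and Actn4 share 49 of 66 bases (74.2%) and the longer ones 58 of 81 (71.6%). The exons are shown in capitals with 12 bases on either side, all on the minus strand, because they are what tells the forms apart.
Actn4 longer exon: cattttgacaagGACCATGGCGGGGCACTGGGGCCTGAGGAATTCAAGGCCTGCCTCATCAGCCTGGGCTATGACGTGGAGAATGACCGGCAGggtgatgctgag
Actn4 shorter exon: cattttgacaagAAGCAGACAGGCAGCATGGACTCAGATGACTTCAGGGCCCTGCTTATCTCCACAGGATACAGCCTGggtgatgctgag
Actn1 longer exon: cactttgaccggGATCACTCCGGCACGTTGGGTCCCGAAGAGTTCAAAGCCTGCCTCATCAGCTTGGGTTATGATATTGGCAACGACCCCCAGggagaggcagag
Actn1 shorter exon: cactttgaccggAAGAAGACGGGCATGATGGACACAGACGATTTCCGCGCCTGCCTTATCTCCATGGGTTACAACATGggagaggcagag

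Actn4 has a further pair of alternative exons, both 86 bases long. Exon 8 of Actn4-201 (chr7:28911490-28911575) was in 86 of 89 reads (96.6%) and 80 of 86 reads (93.0%). The alternative of Actn4-202 (chr7:28909903-28909988) was in 4 of 90 (4.44%) and 6 of 86 (6.98%), and the pair share 65 of 86 bases (75.6%). These 4 exons of Actn4 and the exon of 139 bases in Myoz2 were all the member exons that had at least 20 reads in each library and were held, as the mean of the libraries, by 5 to 95% of reads. In replicate 1 alone the 4 Actn4 exons lay outside that range. For the Myoz2 exon that share, 68.0% and 61.9%, leaves out the reads with the shorter version of the same exon, which are nearly all Myoz2 reads. For none of the 5 did a difference between the libraries pass the test (lowest adjusted exact p = 0.313, Fisher's test). Actn4-201 had 72 of 73 usable reads and 71 of 74, and the rest were on Actn4-203, a retained-intron form of 508 bases. With unannotated forms counted from 1 read, the mean share of Actn4-201 was 81.7%.
Actn4 exon 8 of Actn4-201: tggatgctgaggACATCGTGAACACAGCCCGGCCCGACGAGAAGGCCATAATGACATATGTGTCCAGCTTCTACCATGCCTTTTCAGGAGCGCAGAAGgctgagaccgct
Actn4 alternative exon of Actn4-202: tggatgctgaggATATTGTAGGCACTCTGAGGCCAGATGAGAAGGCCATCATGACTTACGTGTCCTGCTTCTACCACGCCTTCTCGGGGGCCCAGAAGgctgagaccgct

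In Flnc the annotated forms differ by an exon of 99 bases (chr6:29452799-29452897, plus strand), exon 31 of 48 in Flnc-201, which lies in the part known to encode the first hinge of the protein. Of the reads that could show it, 0 of 17 (replicate 1) and 0 of 14 (replicate 2) held it, and the exact 95% intervals allow up to 19.5% and 23.2%. The exon is shown in capitals as the stretch that the Flnc reads from this heart lacked. For Mypn, Mypn-201 had 17 of 18 usable reads and 19 of 19, and all 17 of its internal exons that had at least 20 reads in each library were held by over 95% of reads.
Flnc exon 31 of Flnc-201: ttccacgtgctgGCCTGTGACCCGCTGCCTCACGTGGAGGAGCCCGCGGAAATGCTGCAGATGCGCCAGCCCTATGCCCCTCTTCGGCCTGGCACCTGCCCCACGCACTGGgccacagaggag

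**Figure D4:**
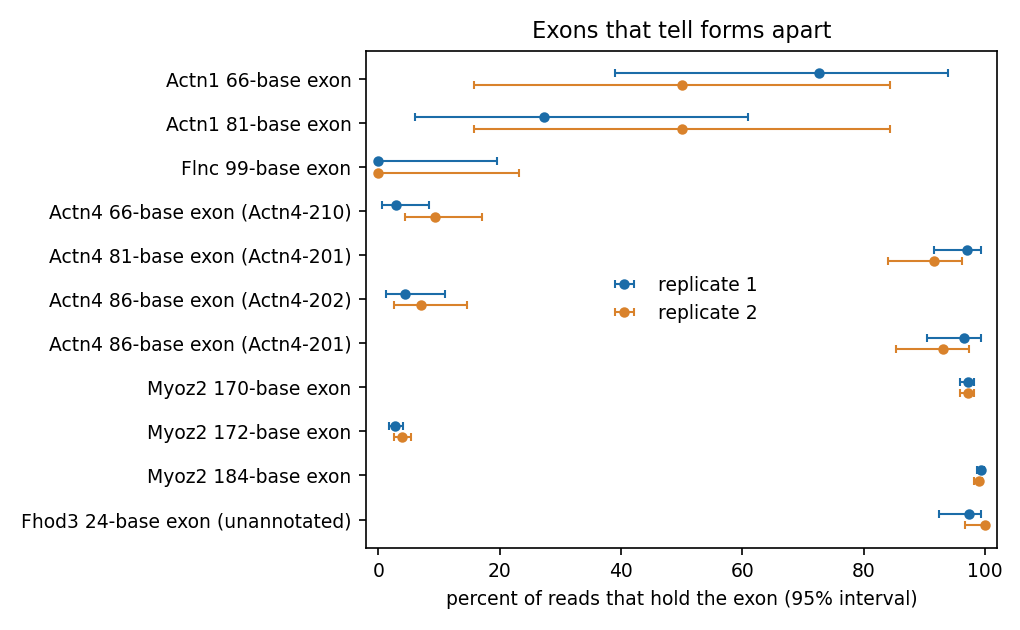
Percent of reads that hold each of 11 exons of Actn1, Actn4, Flnc, Myoz2 and Fhod3, with replicates 1 and 2 as points and exact 95% intervals. The Fhod3 exon of 24 bases and the longer Actn4 exon lie above 91%, the shorter Actn4 exon below 10%, the Flnc exon at 0, and the Actn1 pair has intervals too wide to order.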

How the data were processed

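Long-read RNA-seq of heart was analysed in 2 libraries of 1 group. The authors started from filtered alignments to mm10 and used the GENCODE M21 annotation, per the labels and the accompanying deposited text. Each library has a deposited count table, with the whole number of reads on every model that has at least 1. TALON built these models, per the file headers. Aligner, filters and versions were not given in the sources used here. Deposited columns for exon number, length and model coordinates were used as given.

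From these files, reads were summed per gene over all classes of model. Spike-ins took 12223 of all 896941 reads in replicate 1, and 12825 of all 972159 in replicate 2, and stayed out of the totals. Models were matched between the libraries by intron chain, or by their ends where they had 1 exon, and where the libraries gave a chain different classes, the annotated class was taken first and the incomplete class after the new ones. Gene coordinates and exon sequences came from GENCODE M21 on mm10, and promoter windows from RefSeq on GRCm38.p6. No genome or protein sequence was used here.

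Between the libraries, genes with at least 10 reads in all were compared by an exact binomial test given the totals, with Benjamini-Hochberg adjustment and a threshold of 0.05. With a single library on each side no replicated test could be made. Shares carry exact Clopper-Pearson intervals at 95% and were compared by Fisher's exact test. Python 3.11.15, pandas 2.3.3, SciPy 1.17.1 and, for TMM totals, edgeR 4.0.16 in R 4.3.3 were used. The binomial test was also run on simulated counts with set folds and counting error only. That run says nothing of variation between real libraries. The text names all 9 members, annotated forms with a mean share of at least 5%, unannotated forms with at least 5 reads in each library, exons held on average by 5 to 95% of reads, with at least 20 reads in each library, family genes, and other Z-disc genes where called. Forms and exons below those limits, the exons that tell annotated forms apart, the motifs and the largest incomplete models were named after their values had been seen. The shares within the filamin family are not reported here. The members and lists were chosen with earlier results of these data known.

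Alternatives left out the genomic class, kept annotated models alone, used TMM totals, divided by length, dropped the read minimum, changed which reads were usable, or left out a library.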

Additional observations from a re-analysis of the deposited data

Results flagged for a closer look

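Reads on the strand opposite to a member, which enter no level above, exceeded 3 reads in both libraries for 5 of the 9 genes. Opposite Fhod3 there were 51 reads in replicate 1 and 45 in replicate 2, of which 42 and 33 lay on a single-exon model near the start of the gene (chromosome 18, 24710372 to 24712941 in replicate 1 and 24710373 to 24711736 in replicate 2). Opposite Actn4 there were 28 and 21 reads, with 14 and 10 on a model that had the same ends in both libraries (chromosome 7, 28949632 to 28952547). Opposite Actn2 there were 15 and 10 reads, 11 and 10 of them on a single model over the 3′ end of the gene. Opposite Myoz2 there were 11 and 8 reads, and opposite Mypn 19 and 5, of which 17 and 4 lay on models that end at the same base of chromosome 10, 63161625. The reads were flagged because they exceed what a count of 0 allows and belong to no comparison made here. Their source was not tested.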

How the results depend on the processing

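The summed level of the 9 genes stayed within 1 SD of its value when the genomic class was left out. The same held with annotated models alone and with TMM totals. Without a library the sum was 6764 or 7132 CPM. Either of 2 libraries always lies within 1 SD of their mean, so leaving a library out could not show a larger move. The order of the levels depended on the setting, with 4 of 9 genes keeping their place when annotated models alone were counted and 4 of 9 when reads were divided by length. The count of genes called between the libraries, 167, ranged from 120 to 162 under the alternatives, and Actn2 stayed called under TMM totals alone (adjusted exact p = 0.0275). The Actn2 share of alpha-actinin reads moved from 96.2% to 96.5% without the genomic class and to 96.3% with annotated models alone. The mean Synpo2l share of synaptopodin reads, 53.8%, became 52.9% without the genomic class and 90.8% with annotated models alone, and its difference between the libraries passed under neither (these alternatives were chosen after seeing the data). The median share of the leading form, 97.9% over 6 members, fell to 75.2% with incomplete models in the denominator and to 87.2% with unannotated forms counted from 1 read, and was 97.3 to 98.4% without a library. With annotated models alone, 0 exons were held by 5 to 95% of reads instead of 5. The share of incomplete reads over all members moved by less than 1 SD without the genomic class, whereas that of Synpo2l rose from 2.43% to 4.79%. In alternatives added after seeing the data, the share of the Actn2 model that starts in exon 12 and the inclusion of the Fhod3 exon of 24 bases also moved by less than 1 SD. No paired analysis was possible because there is 1 group. Depth limits Actn1, Flnc and Mypn most.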
